A study of Mus musculus with 9 samples.

Results

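The LDL receptor family was described here through 9 genes: Lrp2, Vldlr, Lrp1, Lrp5, Lrp6, Lrp4, Lrp8, Lrp10 and Sorl1. The members were taken by symbol from the gene table of a single-cell RNA-seq matrix of mouse liver, which lists 53713 genes, and all 9 were found, each under 1 Ensembl gene identifier. The rule names genes of the family and uses no measured value, but it was written with earlier results of these data known. The study profiled livers of C57BL/6J mice aged 6-8 weeks with Singleron GEXSCOPE microwell chips. Wild-type mice had received the liver toxin carbon tetrachloride (CCl4) for 0, 2 or 4 weeks, with 1 sample at each time. A further 6 samples are labelled CluKO, a knockout of the secreted chaperone clusterin (Clu), and these mice were given recombinant human clusterin during the CCl4 injections; the design text speaks of 3 mice and gives no time. The 6 CluKO samples share 1 matrix with no map from cells to samples, so they were read as 1 pooled sample and no difference between mice, or between groups, could be tested. The matrices of the 3 wild-type samples carry no gene names that could be matched, so the receptors in wild-type liver are not analysed here.

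Receptors of this family are single-pass membrane proteins that bind extracellular ligands (lipoproteins, proteases with their inhibitors, vitamin carrier proteins, clusterin) and carry them into endosomes. A chaperone, the receptor-associated protein encoded by Lrpap1, keeps newly made receptors from binding ligand too early, and adaptors such as Dab2 link their tails to coated pits. In the liver the family is best known for the clearance of remnant lipoproteins by Lrp1 in hepatocytes, and Lrp5 and Lrp6 act as Wnt co-receptors.

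The pooled matrix held 4694 cells and 28912707 unique molecular identifiers (UMIs, tags that count captured transcripts one by one), with a median of 4803.5 UMIs per cell. Of the 4616 cells kept, 4058 (87.9%) passed exactly 1 marker gate, and no gate used a receptor gene. Classes are called by the markers that gated them: 479 mesothelial-like, 614 hepatocyte-like, 1854 macrophage-like, 263 monocyte-like, 214 neutrophil-like and 172 granulocyte-monocyte progenitor-like cells, with smaller classes of 185 plasma, 96 erythroid, 57 dendritic, 52 basophil or mast and 42 T and NK-like cells. Among the macrophage-like cells, 631 were classed by the Kupffer gate, 702 by the lipid-associated gate and 4 by both, whether or not they passed the MHC II gate. The 169 cells of the MHC II class passed that gate and neither of the others, and 348 passed none of these. The median depth ranged from 3184 UMIs in erythroid-like to 10684 in progenitor-like cells. Endothelial-like (17) and B-like (13) cells were too few to describe. Clu itself was counted in the matrix labelled CluKO, at 2165 CPM (UMIs per 1000000 UMIs of the class) in hepatocyte-like and 1544 CPM in mesothelial-like cells, against 31.8 CPM in macrophage-like and 17.5 CPM in neutrophil-like cells, which goes against the label; where the deletion lies is unknown, and a tag outside it checks nothing.

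The regulatory sequence in front of the genes whose levels set the classes apart is shown here, so that it can be read beside those levels: Lrp2 (mesothelial-like), Vldlr (counted mainly in the same cells), Lrp1 (macrophage-like) and Sorl1 (neutrophil-like). Each sequence is from RefSeq's table of start sites (GRCm38.p6), runs 5′ to 3′ on the gene's strand and ends before the annotated start of transcription; capitals mark the GC box GGGCGG on either strand, so CCGCCC is the same box read on the other strand.
Lrp2 (chr2:69586066-69586279, minus strand): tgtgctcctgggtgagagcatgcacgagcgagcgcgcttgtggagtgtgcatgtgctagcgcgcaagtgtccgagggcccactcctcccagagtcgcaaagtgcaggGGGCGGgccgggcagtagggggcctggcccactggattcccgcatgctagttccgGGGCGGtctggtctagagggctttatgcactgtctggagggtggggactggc
Vldlr (chr19:27216234-27216483, plus strand): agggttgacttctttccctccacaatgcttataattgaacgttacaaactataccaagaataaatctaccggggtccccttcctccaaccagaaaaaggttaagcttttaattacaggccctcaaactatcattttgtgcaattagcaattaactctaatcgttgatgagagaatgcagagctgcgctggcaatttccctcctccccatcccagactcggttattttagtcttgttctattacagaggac
Lrp1 (chr10:127621149-127621398, minus strand): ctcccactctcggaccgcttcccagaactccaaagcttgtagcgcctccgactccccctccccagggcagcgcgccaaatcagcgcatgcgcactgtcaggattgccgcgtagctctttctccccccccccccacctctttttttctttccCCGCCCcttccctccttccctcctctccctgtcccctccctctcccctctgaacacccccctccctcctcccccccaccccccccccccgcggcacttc
Sorl1 (chr9:42124298-42124547, minus strand): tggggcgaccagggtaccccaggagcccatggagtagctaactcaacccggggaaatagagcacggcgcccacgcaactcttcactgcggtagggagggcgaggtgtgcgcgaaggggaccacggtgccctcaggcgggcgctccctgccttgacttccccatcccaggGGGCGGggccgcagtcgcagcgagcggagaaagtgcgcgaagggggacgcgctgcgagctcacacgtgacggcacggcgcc

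The Lrp2 sequence held 2 GC boxes, those of Lrp1 and Sorl1 held 1 each, and that of Vldlr held 0. Over the full window of 250 bases before and 50 after the start, 35.7% of 32851 windows held at least 1. The Vldlr window was 43% G and C, below the median of 52.7% over all windows, while those of Lrp2 (65%), Lrp1 (67.7%) and Sorl1 (72.3%) were above it. CpG dinucleotides numbered 8 in the Vldlr window, 16 in that of Lrp1, 20 in that of Lrp2 and 37 in that of Sorl1, against a median of 7. Of the 9 members, 6 had a window in the table. None of these 6 held CCAAT (37.4% of all windows), TATAAA (13.6%) or the PU.1-type ETS motif GAGGAAGT (3.20%), each searched on both strands and none overlapping another by its letters. These are matches of letters in one window and describe no factor's binding.

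Lrp1 was the most often counted of the 9 genes, with 33390 UMIs over all kept cells (1163 CPM) and at least 1 UMI in 68.7% of them. Lrp10 had 2071 UMIs, Sorl1 1160, Lrp6 1096, Lrp5 715 and Lrp2 398, and the other members were rare, with 83 UMIs of Lrp8, 67 of Lrp4 and 45 of Vldlr. Every level that follows is a sum of UMIs over the cells of a class, given in CPM with an exact Poisson 95% interval. Every share is a share of cells with at least 1 UMI, with its exact binomial (Clopper-Pearson) interval in the tables behind it. Neither interval takes in how mice vary. Intervals of levels and of their ratios take in only how UMIs are sampled. They leave out spread between cells, so they can be too narrow. The variance of Lrp1 counts per cell, for one, was 5.61 times the mean in macrophage-like cells, differences in depth included. Where a class held 0 UMIs, the limit given is what 3 UMIs would amount to.

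**Figure D1:**
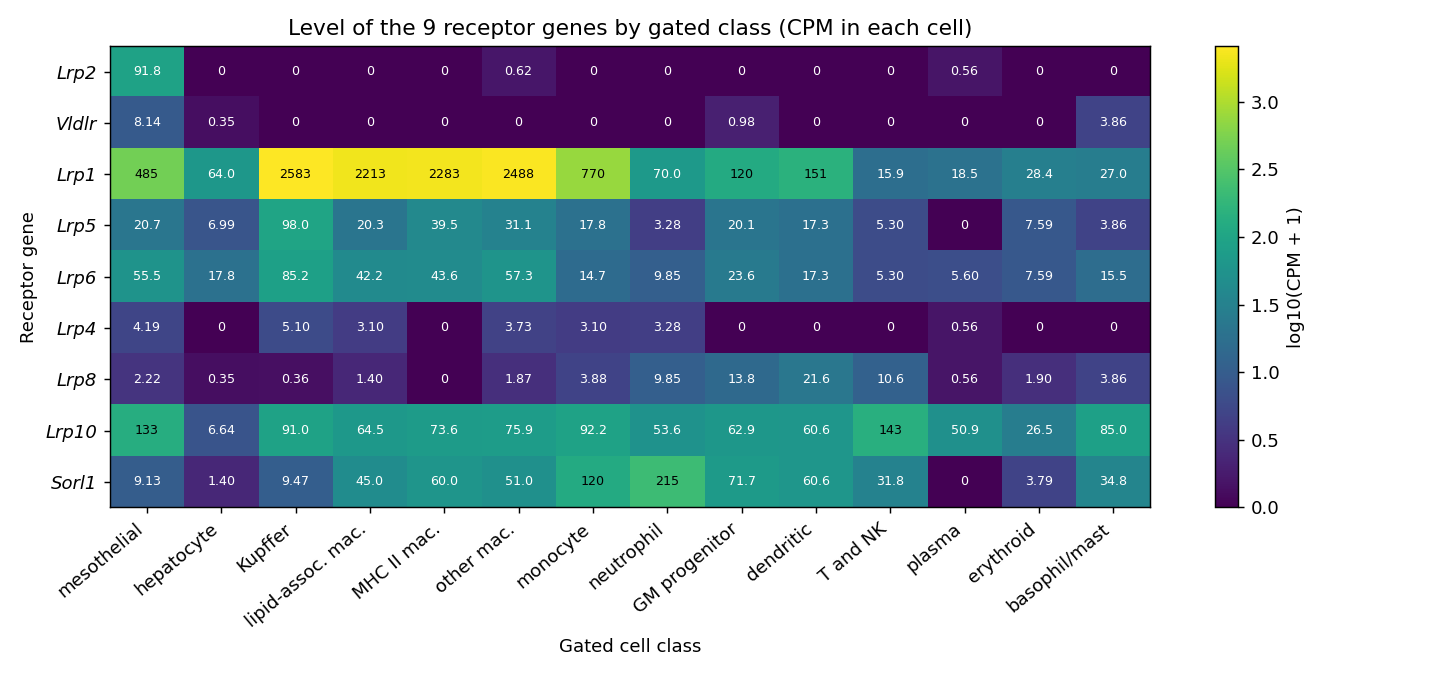
Level of each of the 9 receptor genes (vertical axis) in 14 gated cell classes (horizontal axis) of the pooled matrix; the number in each box is the level in CPM and the colour is log10(CPM + 1). Lrp2 reached 91.8 CPM in mesothelial-like cells, Lrp1 stood above 2000 CPM in all macrophage gates, and Sorl1 was highest in neutrophil-like cells at 215 CPM.

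Lrp2, which encodes megalin, the large endocytic receptor known from the kidney's proximal tubule and a receptor for clusterin, was counted almost entirely in mesothelial-like cells. It lies on chr2:69424340-69586065, minus strand (ENSMUSG00000027070). These cells held 372 of its 398 UMIs (93.5%) while making up 10.4% of the kept cells. Its level there was 91.8 CPM (82.7-102), and 43.8% of the cells had at least 1 UMI. Outside them, 1 UMI was counted in the macrophage-like cells that passed no further gate, 1 in plasma-like cells, 10 in cells that passed several gates and 14 in cells that passed none. Hepatocyte-like cells, with a median of 3432 UMIs against 7328 in mesothelial-like cells, had 0 UMIs in 614 cells, which allows a level of up to 1.05 CPM and a share of up to 0.489%. With each cell thinned to 1000 UMIs, 8.35% of mesothelial-like cells kept an Lrp2 UMI. At the ratio of Lrp2 to the mesothelial marker Upk3b, the Upk3b UMIs found in macrophage-like cells would go with 0.269 CPM of Lrp2, and 0.0864 CPM was measured.

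Within the mesothelial-like class Lrp2 varied from cell to cell. No UMI was counted in 269 cells, 1 in 120, 2 in 47 and 3 or more in 43, with at most 7 in a cell. After thinning, the variance of its count was 1.58 times the mean. The 343 cells without Enpp2, a secreted lysophospholipase counted together with collagen genes in some of these cells, had 84.2 CPM of Lrp2 (74.1-95.2). The 30 cells with 1 Enpp2 UMI had 135 CPM (95.3-187), and the 106 cells with 2 or more had 106 CPM (84.4-132). The 30 cells, with 37 UMIs of Lrp2, stood 1.61-fold (1.11-2.28) above those without Enpp2. The ratio of the cells with 2 or more to those without, 1.26 (0.970-1.63), had an interval that spans 1. Cycling cells, those with 2 or more UMIs of Mki67 and Top2a, had 73.3 CPM (57.1-92.6) and the others 97.5 CPM (86.8-109).

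The 210 mesothelial-like cells with an Lrp2 UMI were set beside the 269 without one, at median depths of 7513 and 7149 UMIs. Dab2, the adaptor that binds the megalin tail, was at 277 CPM against 226 CPM, a ratio of 1.22 (1.08-1.39). The mesothelial markers Upk3b (1.25, 1.20-1.31) and Msln (1.13, 1.07-1.20) differed as much or nearly so, and the secreted proteins' genes Slpi (0.817) and Saa3 (0.850) went the other way; these 4 were chosen after their values were seen. Lrpap1 was at 244 CPM against 281 CPM and Clu, a megalin ligand, at 1473 CPM against 1602 CPM, so both were slightly lower in the cells with a UMI. Lrp1 was at 479 CPM and 490 CPM, a ratio of 0.977 with an interval that spans 1 (0.893-1.07). These ratios are small beside the 2-fold used below to call a difference.

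Vldlr, the receptor for very low density lipoprotein and for reelin, was the other gene counted mainly in mesothelial-like cells. It lies on chr19:27216484-27254231, plus strand (ENSMUSG00000024924). It had 33 UMIs there, a level of 8.14 CPM (5.60-11.4), and 6.05% of the cells had a UMI. Elsewhere it had 2 UMIs in progenitor-like cells, 1 in hepatocyte-like, 1 in basophil- or mast-like and 8 in ungated cells. None was counted in the 1854 macrophage-like cells, which allows up to 0.259 CPM. Between the classes outside the mesothelial-like cells no order could be read from so few UMIs.

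Lrp1, the multiligand receptor that clears remnant lipoproteins, protease complexes and dying-cell debris, was a macrophage gene in this matrix. It lies on chr10:127538161-127621148, minus strand (ENSMUSG00000040249). Its level was 2344 CPM (2316-2372) over the macrophage-like cells, and 99.8% of them had a UMI, 87.1% after thinning. Kupffer-like cells had 2583 CPM (2523-2644), the macrophage-like cells of no further gate 2488 CPM, the MHC II-gated cells 2283 CPM and the lipid-associated cells 2213 CPM (2177-2250). The first and second of these did not differ beyond counting error (ratio 1.04, 0.998-1.08), nor did the last 2. Below the macrophage-like cells came monocyte-like cells at 770 CPM (722-819) and mesothelial-like cells at 485 CPM (464-507), where 90.4% of cells had a UMI, 34.0% after thinning.

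All other classes were lower by a wide margin. Dendritic-like cells had 151 CPM and progenitor-like cells 120 CPM, which did not differ beyond counting error. Neutrophil-like cells had 70.0 CPM and hepatocyte-like cells 64.0 CPM (55.0-73.9), again not separable. Hepatocyte-like cells had a UMI in 19.1% of cells, 4.89% after thinning. In plasma-like cells, antibody-secreting cells that serve here as the background for free RNA, 16.8% of cells had a UMI at a median depth of 8888 UMIs against 3432, and 2.16% after thinning, with a level of 18.5 CPM. Hepatocyte-like cells were 2.25-fold above erythroid-like cells (28.4 CPM), the next class down, and the interval of that ratio lay above 1; the levels of erythroid-, basophil- or mast-, plasma- and T and NK-like cells (15.9 to 28.4 CPM) could not be ordered.

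Because Lrp1 was so abundant in macrophage-like cells, its level elsewhere was set beside that of C1qb, a complement gene of macrophages and one of their gate markers. At the macrophage ratio of Lrp1 to C1qb, the C1qb UMIs in plasma-like cells would go with 20.5 CPM of Lrp1, and 18.5 CPM was measured. The corresponding level was 20.6 CPM in hepatocyte-like cells and 31.1 CPM in neutrophil-like cells, below the measured 64.0 and 70.0 CPM. In mesothelial-like cells it was 21.4 CPM against 485 CPM measured, in progenitor-like cells 16.8 against 120 CPM, and in monocyte-like cells 39.6 against 770 CPM. Lrp1 exceeded the C1qb-based level in all of these but the plasma-like cells. Cells of another class that also passed the macrophage gate were left out with the cells of several gates, which held 1641 Lrp1 UMIs. This limits how much of a macrophage gate marker such as C1qb the kept classes can hold, and so the level derived from it. The source of the Lrp1 UMIs in these classes was not tested. With Cd68, a gate marker counted in more of the myeloid classes, that level was 98.0 CPM in neutrophil-like, 97.2 CPM in progenitor-like and 448 CPM in monocyte-like cells, so that neutrophil-like cells fell below it, while it was 27.0 CPM in mesothelial-like and 26.8 CPM in hepatocyte-like cells.

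**Figure D2:**
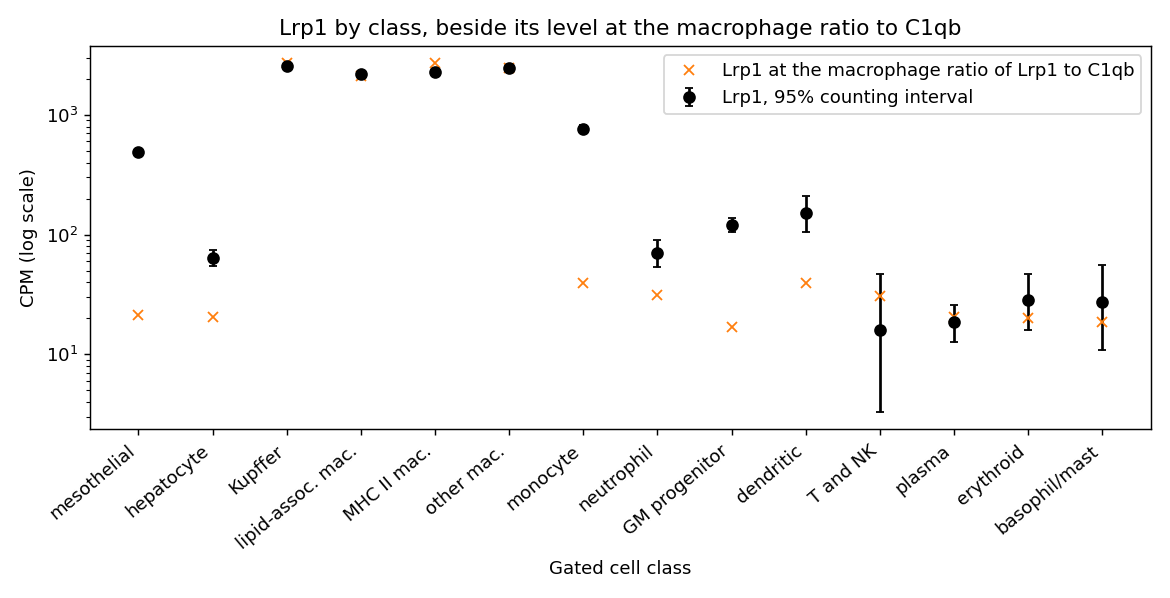
Lrp1 level in CPM (log axis) by gated class: black points are measured levels with 95% counting intervals, and crosses are the level at the macrophage ratio of Lrp1 to C1qb. Plasma-like, T and NK-like, erythroid-like and basophil- or mast-like cells lie with their intervals across the cross, and mesothelial-like (485 CPM) and monocyte-like (770 CPM) cells lie far above it.

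Some classes were mixed in their Lrp1 counts. The variance of the thinned count was 1.37 times the mean in macrophage-like cells, and 65 UMIs was the most in a cell. In neutrophil-like cells it was 2.72 times a mean of 0.0935 UMIs per cell, and 2.52 times the mean with thinning to 2000 UMIs. The 190 cells with immature granule markers had 38.0 CPM (26.0-53.7) and the other 24 cells 442 CPM (302-624), which made up 32 of the class's 64 Lrp1 UMIs. Macrophage markers moved with this difference: the macrophage list (7 of 7 markers counted in both) summed to 1313 CPM in the 24 cells and 240 CPM in the 190, the Cx3cr1 and MHC II list (3 of 4, Cx3cr1 at 0, and 4 of 4) to 5017 and 137 CPM, and the lipid-associated list (5 of 5 in both) to 1755 and 782 CPM. Their part in the Lrp1 level of the 24 cells, and so of the whole neutrophil-like class, was not tested. Hepatocyte-like cells with 10 or more Clu UMIs had 123 CPM (95.3-156) and those with fewer 50.1 CPM (41.4-60.1). The lipid-associated list (5 of 5 markers in both) summed to 1551 and 194 CPM in these cells, the stellate or fibroblast list (2 of 8 and 5 of 8 markers) to 141 and 13.8 CPM and the macrophage list to 138 and 153 CPM, and the part of these markers in the Lrp1 difference was not tested. Cycling macrophage-like cells had 1942 CPM (1882-2004) and the others 2429 CPM (2398-2460), and cycling mesothelial-like cells had 334 CPM (298-373) against 532 CPM (506-558) in the others, so in both classes the intervals were apart. Lipid-associated cells with 10 or more UMIs of Mmp12, a macrophage elastase, had 2091 CPM (2044-2140) and those with fewer 2359 CPM (2304-2416).

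Lrp5 and Lrp6, the co-receptors that pair with Frizzled receptors to pass on the Wnt signal, were highest in Kupffer-like cells among the classes described. The 17 endothelial-like cells, left out as too few, had 5 UMIs of Lrp5 and 6 of Lrp6 among 57502 UMIs. Lrp5 lies on chr19:3584828-3686564, minus strand (ENSMUSG00000024913), and Lrp6 on chr6:134446476-134566965, minus strand (ENSMUSG00000030201). Lrp5 had 98.0 CPM (86.6-110) in Kupffer-like cells, 2.48-fold (1.69-3.77) more than in the next class, the MHC II-gated cells at 39.5 CPM. The macrophage-like cells of no further gate had 31.1 CPM and mesothelial-like cells 20.7 CPM, with an interval of their ratio from 1.04 to 2.16. Lipid-associated (20.3 CPM), progenitor-like (20.1 CPM) and monocyte-like cells (17.8 CPM) followed with no neighbours separated. Hepatocyte-like cells had 6.99 CPM (4.27-10.8) and plasma-like cells 0 UMIs.

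Lrp6 had a shallower order. It had 85.2 CPM (74.6-96.9) in Kupffer-like cells, 1.49-fold (1.16-1.92) more than the 57.3 CPM of the macrophage-like cells of no further gate. Mesothelial-like cells had 55.5 CPM (48.5-63.3) and lipid-associated cells 42.2 CPM (37.3-47.5). Progenitor-like cells followed at 23.6 CPM, hepatocyte-like cells at 17.8 CPM (13.3-23.4) and monocyte-like cells at 14.7 CPM. The hepatocyte-like level rested on 51 UMIs.

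Lrp4, an agrin receptor of the neuromuscular junction that also dampens Wnt signalling, was rare. It lies on chr2:91457511-91513779, plus strand (ENSMUSG00000027253). Kupffer-like cells had 14 UMIs (5.10 CPM), mesothelial-like cells 17 (4.19 CPM) and lipid-associated cells 20 (3.10 CPM), and no neighbours in this order were separated. Hepatocyte-like cells had 0 UMIs, which allows up to 1.05 CPM. Within the mesothelial-like class 11 of its 17 UMIs fell in the 106 cells with 2 or more Enpp2 UMIs, at 14.4 CPM (7.20-25.8), against 5 UMIs and 1.66 CPM (0.538-3.87) in the 343 cells without Enpp2; their ratio was 8.71 (2.79-32.0), with too few UMIs to enter the comparison below.

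Lrp8, the apolipoprotein E receptor 2 that takes up reelin and selenoprotein P, was counted mostly in blood-lineage cells. It lies on chr4:107802261-107876840, plus strand (ENSMUSG00000028613). Progenitor-like cells had 28 of its UMIs, at 13.8 CPM (9.14-19.9), which was 12.2-fold (6.14-25.8) more than macrophage-like cells at 1.12 CPM. Dendritic-like cells had 5 UMIs (21.6 CPM), neutrophil-like cells 9 (9.85 CPM) and T and NK-like cells 2 (10.6 CPM). Without cycling cells, which left 65 of the 172 progenitor-like cells, the progenitor level was 6.42 CPM. No neighbours in the order were separated.

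Lrp10, a distant relative that moves between the trans-Golgi network, endosomes and the cell surface, was counted in every class. It lies on chr14:54464137-54471497, plus strand (ENSMUSG00000022175). Its level was 133 CPM (122-144) in mesothelial-like cells, where 58.9% of cells had a UMI, and 143 CPM (94.3-208, 27 UMIs) in T and NK-like cells. From monocyte-like (92.2 CPM) down to plasma-like cells (50.9 CPM) no neighbours were separated. The low end was distinct: erythroid-like cells had 26.5 CPM and hepatocyte-like cells 6.64 CPM (4.00-10.4), each below the class above it.

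Sorl1, the mosaic sorting receptor that retromer carries from endosomes back to the Golgi, was highest per UMI in neutrophil-like and monocyte-like cells. It lies on chr9:41964720-42124297, minus strand (ENSMUSG00000049313). Neutrophil-like cells had 215 CPM (186-247), with a UMI in 55.1% of cells and 18.7% after thinning. Monocyte-like cells had 120 CPM (102-141), lower by a ratio of 1.79 (1.44-2.22), and progenitor-like cells 71.7 CPM (60.6-84.3), so neutrophil-like cells stood 2.99-fold (2.40-3.73) above the progenitor-like ones. Dendritic-like cells (60.6 CPM), MHC II-gated cells (60.0 CPM), macrophage-like cells of no further gate (51.0 CPM) and lipid-associated cells (45.0 CPM) followed. No neighbours from progenitor-like down to T and NK-like cells (31.8 CPM, 6 UMIs) were separated. T and NK-like cells stood 3.36-fold (1.13-8.34) above Kupffer-like cells, the next class down. Macrophage-like cells together held 443 of the 1160 UMIs (38.2%) and made up 40.2% of the cells. Kupffer-like cells had 9.47 CPM (6.18-13.9), mesothelial-like cells 9.13 CPM and hepatocyte-like cells 1.40 CPM. Plasma-like cells had 0 UMIs, which allows up to 1.68 CPM.

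The share that each gene took of the family's UMIs differed between classes. These shares are of UMIs, which count captured transcripts and are not scaled by transcript length. In macrophage-like cells Lrp1 made up 91.7% of the family's UMIs, while in neutrophil-like cells Sorl1 made up 58.9% and Lrp1 19.2%. Mesothelial-like cells held a mixed set, with 59.9% Lrp1, 16.4% Lrp10, 11.3% Lrp2 and 6.86% Lrp6, and a median of 3 of the 9 genes counted per cell. Hepatocyte-like cells held 279 UMIs of the family, 65.6% of them Lrp1 and 18.3% Lrp6, and 72.3% of these cells had no UMI of any member. Summed over the 9 genes, the level was 97.5 CPM in hepatocyte-like, 810 CPM in mesothelial-like and 2872 CPM in Kupffer-like cells.

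**Figure D3:**
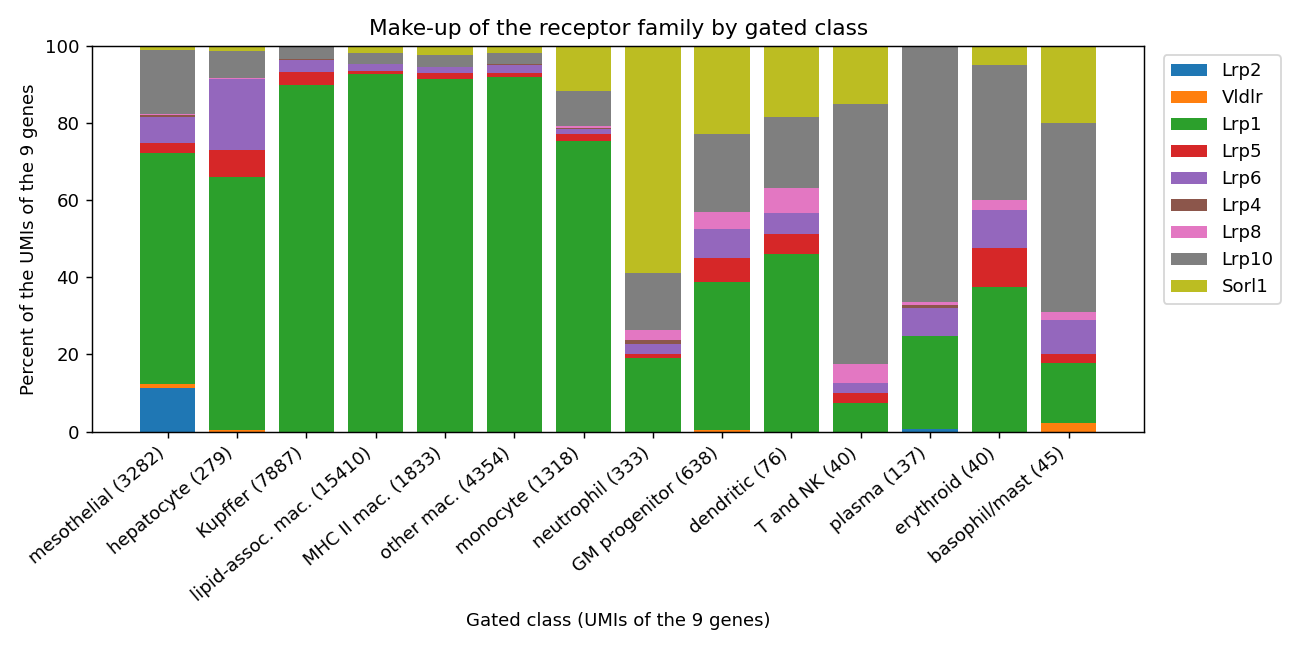
Percent of the UMIs of the 9 receptor genes (vertical axis) that each gene took in 14 gated classes (horizontal axis, with the number of UMIs in brackets). Lrp1 filled over 90% of the bar in 3 of the 4 macrophage gates, Lrp2 took 11.3% in mesothelial-like cells, and Sorl1 took 58.9% in neutrophil-like cells.

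Mesothelial-like cells were compared with all other gated cells, counting a gene as higher or lower at 2-fold or more with at least 30 UMIs over both sides. Of the 9 members, 3 were higher, where 22.0% of 13544 genes were: Lrp2 at 91.8 against 0.0919 CPM, Vldlr at 8.14 against 0.184 CPM and Lrp10 at 133 against 61.9 CPM. The Lrp2 ratio of 999 (275-8279) rests on 2 UMIs in the other cells and that of Vldlr, 44.3 (15.8-172), on 4, whereas that of Lrp10 was 2.15 (1.94-2.37). Lower by 2-fold or more were 2 members, where 20.5% of genes were: Lrp1 by 2.72-fold (2.60-2.85) and Sorl1 by 4.95-fold (3.56-7.07). Lrp6 (ratio 1.53, 1.32-1.78) and Lrp4 (1.90, 1.03-3.37) were between, and the members' median log2 ratio was 0.62 against 0.06 over all genes tested. Without the deepest 5% of cells in each class Lrp4 (log2 ratio 1.13) and Lrp8 (-1.06) also passed 2-fold.

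The partners of the receptors in this comparison were read from lists, beside shares over all genes tested of 22.0% higher and 20.5% lower. The counts of the retromer and turnover lists lay near or below these shares. Among the adaptors, 4 of 11 were higher and 1 was lower, with Dab2 at 248 CPM against 71.9 CPM (3.45-fold) and Pid1, which binds the tail of Lrp1, 15.0-fold lower. Lrpap1 was at 264 CPM against 140 CPM, a ratio of 1.89, and none of the 3 chaperones passed 2-fold. Cubn and Amn, which form the partner receptor of megalin in the kidney, had 4 and 0 UMIs in mesothelial-like cells. The list of Wnt partners had 15 of 21 genes higher and 1 lower, with the secreted Wnt amplifier Rspo1 (298-fold) and the receptor Fzd2 (218-fold) at the top. Of 18 ligands, 9 were higher, among them the plasminogen activator Plat (124-fold), Dkk3 (77.3-fold) and Clu (5.01-fold), and 7 were lower, among them lipoprotein lipase, Lpl, by 93.0-fold. Among the relatives outside the 9 genes none of 5 was higher and 2 were lower, Sort1, sortilin, by 6.74-fold and Lrp12 by 4.27-fold. The retromer list had 2 of 9 higher (Hspa12a and Gga2), the turnover list 1 of 7 higher (the protease Bace1, 8.02-fold) and 1 lower, and the sterol list 1 of 11 higher (Srebf2, 3.29-fold) and 3 lower, with Nr1h3, a liver X receptor, lowest.

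**Figure D4:**
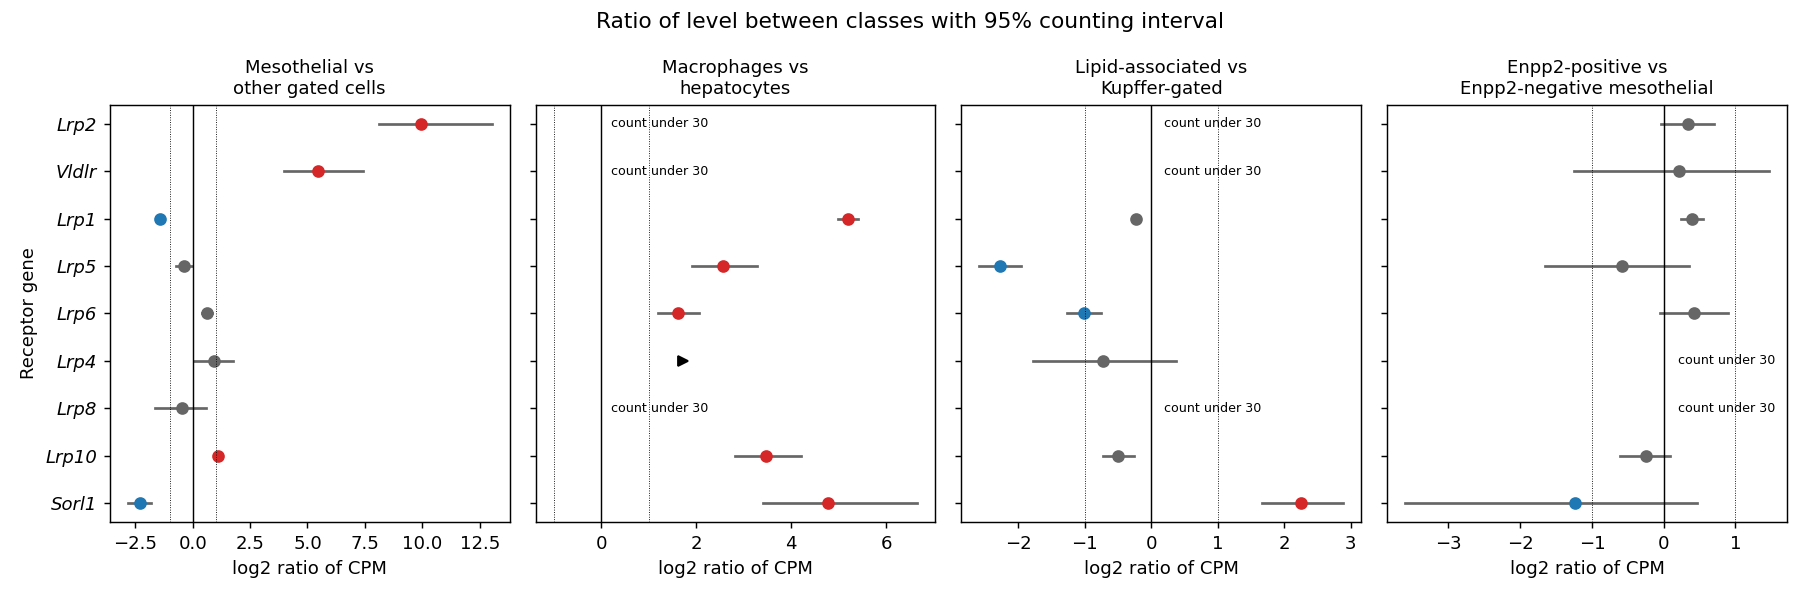
Log2 ratio of the level in CPM of each member (vertical axis) in 4 comparisons (panels), with 95% counting intervals as lines; red points are 2-fold or more higher, blue points 2-fold or more lower, grey points neither, and dotted lines mark 2-fold. The black arrowhead for Lrp4 marks 3.30-fold, taking 3 UMIs for the 0 of hepatocyte-like cells. All 6 members tested were higher in macrophage-like than in hepatocyte-like cells.

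Macrophage-like cells were compared with hepatocyte-like cells, the parenchyma in which hepatic Lrp1 is best known. All 6 members with enough UMIs were higher in macrophage-like cells, where 34.4% of 11420 genes were, and none was lower, where 22.6% of genes were. Lrp1 differed by 36.7-fold (31.7-42.6), Sorl1 by 27.4-fold (10.6-101), Lrp5 by 5.92-fold (3.79-9.78) and Lrp6 by 3.06-fold (2.30-4.16). Lrp10 was at 73.3 CPM against 6.64 CPM, with an interval of the ratio from 7.03 to 18.4. Lrp4, with 40 UMIs against 0, was 3.30-fold higher when 3 UMIs were taken as the floor of the hepatocyte-like class. The interval of its ratio began lower, at 2.56. The members' median log2 ratio was 4.12, or 3.02 with Lrp4 at 3.30-fold, against 0.23 over all genes tested. Their median depths were 5185.5 UMIs in macrophage-like and 3432 UMIs in hepatocyte-like cells. The erythroid list summed to 8689 CPM in macrophage-like (7 of 7 markers) and 25295 CPM in hepatocyte-like cells (6 of 7). In the latter the hepatocyte list (8 of 8 markers) summed to 29170 CPM. The part that depth and these markers play in these ratios was not tested.

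Here too the partners were counted, beside shares over all genes tested of 34.4% higher and 22.6% lower. All 3 chaperones were higher in macrophage-like cells, Lrpap1 by 7.04-fold, and 4 of 8 adaptors were higher, Dab2 by 60.9-fold, while Pid1 was 2.81-fold lower. The retromer list had 4 of 8 genes higher and 0 lower. Of 5 relatives 4 were higher, with Lrp12 at 454 UMIs against 0 and Sort1 30.3-fold higher. The turnover list had 5 of 6 higher, with Mylip, a ligase that marks lipoprotein receptors for breakdown, 44.6-fold (12.3-370, on 2 UMIs in hepatocyte-like cells) and the sheddase Adam17 26.2-fold higher. The ligands split, with 8 of 15 higher (Lpl 99.1-fold, the prosaposin gene Psap 68.7-fold) and 6 lower, among them the retinol carrier Rbp4 by 103-fold and Clu by 68.1-fold. The sterol list also split, with 3 of 11 higher, the cholesterol exporter Abca1 by 27.4-fold, and 4 lower, the synthesis genes Hmgcs1 by 11.2-fold and Sqle by 8.67-fold. Wnt partners were 5 of 11 higher and 2 lower, Rnf43 by 40.5-fold and Lgr4 by 13.3-fold.

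Lipid-associated cells, defined by Gpnmb, Spp1, Trem2, Cd9 and Fabp5, were compared with Kupffer-like cells, the resident macrophages of the sinusoids. Of 6 members tested, 1 was higher, where 7.43% of 10162 genes were, and 2 were lower, where 17.2% of genes were. Sorl1 was 4.75-fold higher (3.18-7.40), at 45.0 CPM (39.9-50.5) against 9.47 CPM. Lrp5 was 4.82-fold lower (3.90-5.99), at 20.3 against 98.0 CPM, and Lrp6 2.02-fold lower (1.69-2.42), at 42.2 against 85.2 CPM. The Lrp6 difference lay on the threshold: its log2 ratio was -0.98 without the deepest 5% of cells and -0.94 with 5 CPM added to each level, which ends the call. Lrp1 was 1.17-fold lower and Lrp10 1.41-fold lower. The members' median log2 ratio was -0.61 against -0.21 over all genes tested. Median depths were 8377 and 4091 UMIs. The endothelial list summed to 24.0 CPM in lipid-associated (8 of 8 markers) and 875 CPM in Kupffer-like cells (7 of 8). The collagen and Enpp2 list (5 of 5 in both) summed to 21.4 and 256 CPM. The stellate or fibroblast list went the other way, at 152 and 101 CPM. The part of these markers in the Lrp5 and Lrp6 differences was not tested.

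**Figure D5:**
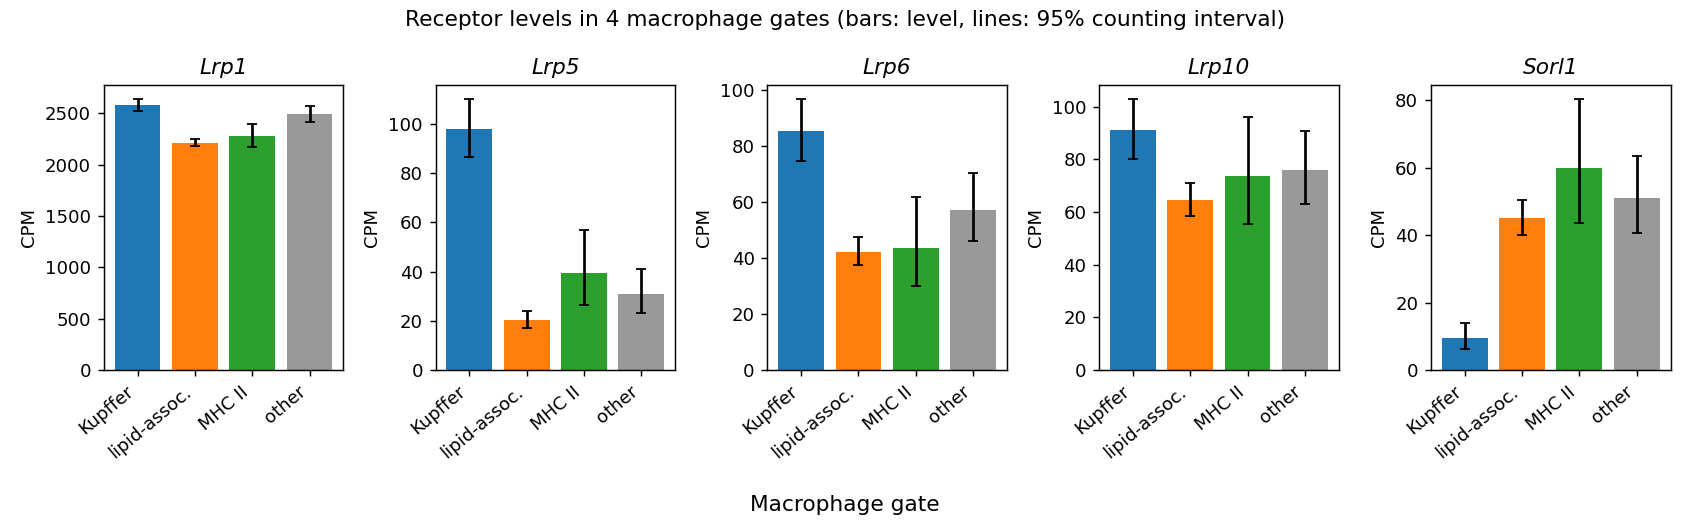
Level in CPM (bars) with 95% counting intervals (lines) of 5 members in the 4 macrophage gates; each panel has its own vertical axis from 0. Lrp5 and Lrp6 were highest in Kupffer-like cells (98.0 and 85.2 CPM), Sorl1 was lowest there (9.47 CPM), and Lrp1 ranged from 2213 to 2583 CPM.

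Among the relatives, 3 of 5 were higher in lipid-associated than in Kupffer-like cells: Sort1, a sorting receptor with the same VPS10 domain as Sorl1, by 17.5-fold (9.69-35.3; 70.1 against 4.01 CPM), Lrp12 by 3.50-fold and Ldlrad3 by 2.25-fold. No gene of the chaperone, adaptor or retromer lists passed 2-fold. For each list of this comparison the share over all genes tested was 7.43% higher and 17.2% lower. The ligand list had 5 of 13 higher, with Thbs1, thrombospondin 1, by 9.87-fold and Psap by 4.03-fold, and 3 lower, with Apob by 5.92-fold and Clu by 2.25-fold. The hepatocyte list (8 of 8 markers in both) summed to 544 CPM in lipid-associated and 1200 CPM in Kupffer-like cells, and its part in the Apob and Clu differences was not tested. In the turnover list 1 of 6 was higher and 2 were lower (Mylip by 2.13-fold, Adam17 by 2.12-fold), and in the sterol list 0 of 10 were higher and 3 lower, with Nr1h3 by 3.89-fold. Of the Wnt partners 7 had enough UMIs and 1, the Dickkopf receptor Kremen1, was lower.

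The last comparison set the 106 mesothelial-like cells with 2 or more Enpp2 UMIs beside the 343 with none. The collagen and Enpp2 markers summed to 14801 CPM in the former and 3489 CPM in the latter, and the stellate or fibroblast list to 584 and 576 CPM, with Lrat, Reln and Rgs5 at 0 in the former and Reln and Rgs5 at 0 in the latter. The mesothelial list (9 of 9 markers in both) summed to 4329 and 7559 CPM and the cholangiocyte list (4 of 6 and 3 of 6) to 114 and 524 CPM, and the part of these markers in the ratios below was not tested. Of 7 members tested none was higher, where 5.35% of 9481 genes were, and 1 was lower, where 8.27% were. That one, Sorl1, had 3 UMIs against 28, a ratio of 2.36 whose interval spans 1 (0.728-12.1), and with 5 CPM added its log2 ratio was -0.68. Without the deepest 5% of cells, or without cycling cells, it had fewer than 30 UMIs and was not tested. Lrp2 differed by 1.26-fold (0.970-1.63), Lrp1 by 1.32-fold (1.18-1.47) and Lrp6 by 1.35-fold (0.963-1.85), all in the direction of the Enpp2-positive cells. Of the partners, 3 of 15 ligands were higher, led by midkine, Mdk (4.91-fold), and Dkk3 (3.53-fold), and 2 were lower, Ctgf by 2.80-fold and Thbs1 by 2.23-fold. Axin2, a target of Wnt signalling, was the 1 Wnt partner of 16 to pass 2-fold (2.54-fold higher). The turnover list had 2 of 7 genes lower, the retromer list 1 of 8 lower (Hspa12a) and the sterol list 2 of 11 higher and 1 lower, and no gene of the relatives, chaperone or adaptor lists passed 2-fold.

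Over the 16 classes of 30 or more cells, the pattern of each member was set beside those of 8052 other genes by Pearson's r of log2(CPM + 5). The 16 points share one pooled library, differ in depth and are not independent, so these values are descriptions. Mesothelial-like cells enter as separate points by Enpp2 UMIs (0, 1, and 2 or more), and macrophage-like cells by gate. A gene counted almost only in mesothelial-like cells, Vldlr among them, therefore gets a high r with Lrp2 from that contrast alone. Closest to Lrp2 were Gjb5 (r = 0.998), a gap junction connexin, Ddr2, a collagen receptor, Sema5a, Rbms3 and Ndn. Closest to Lrp1 were Renbp (0.960), Grn, progranulin (0.957), Zdhhc9, Dpp7 and Lamp2. Closest to Lrp6 was the integrin gene Itgav (0.960), to Lrp5 Prpsap2 (0.930), to Lrp10 Emp3 (0.927) and to Sorl1 the glycogenin gene Gyg (0.919) and Lyst (0.916). Among the members, Lrp2 with Vldlr (0.92), Lrp1 with Lrp5 (0.86), Lrp1 with Lrp6 (0.85) and Lrp5 with Lrp6 (0.83) had the highest r.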

How the data were processed

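Deposited UMI counts per gene and cell were used without change; the authors made them from Singleron GEXSCOPE libraries on NovaSeq per the labels' protocols, on GRCm 38 per the submitters' processing notes, and the aligner was not stated. Cells with at least 200 genes and at most 20% mitochondrial UMIs were kept and gated on marker UMIs; the 173 cells passing several gates and the 385 passing none were left out. No doublet caller was run; an alternative drops the deepest 5% of each class. Ratios carry conditional binomial 95% intervals, and shares were also taken after thinning each cell to 1000 UMIs (lowest depth 2371, so none was lost). With 1 pooled sample there is no test. All 9 members are named; partner genes named are the 2 highest and 2 lowest of a list plus Dab2, Lrpap1, Clu, Cubn and Amn, with others given as counts; 1 further gene is not reported here. Members, lists and gates were chosen with earlier results of these data known, and gate thresholds after the values were seen. The ratio code was tested on simulated Poisson counts, which hold no spread between cells. All 4694 barcodes were distinct; 1 matrix has barcodes, so sharing between libraries could not be counted. Antisense genes overlap Lrp1, Lrp8, Lrp10 and Sorl1, none in the last 2000 bases. Python 3.11.15, numpy 2.4.6, scipy 1.17.1 and pandas 2.3.3 were used.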

Additional observations from a re-analysis of the deposited data

How the results depend on the processing

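No direction reversed under any alternative run: of 181 log2 ratios of members recomputed for 27 ratios, 176 stayed on their side of 2-fold, 3 fell below it and 2 rose above it. The 176 include 1 value for each of the 27 ratios from lowering the summed count to 10. That setting changes which genes are tested and not their ratios, so these values could not move. Of 54 recomputed levels, 48 stayed inside the counting interval. Weighting cells equally gave Lrp2 112 CPM in mesothelial-like and Lrp1 2451 CPM in macrophage-like cells; Lrp1 was 2316 CPM there with cells of several gates assigned, 2394 CPM without the deepest 5% of cells and 2429 CPM without cycling cells. Leaving out cycling cells, an alternative chosen after seeing the data, gave Lrp8 6.42 CPM in progenitor-like cells. Thinning to 2000 UMIs gave variance-to-mean ratios of 1.27 (Lrp2, mesothelial-like) and 1.67 (Lrp1, macrophage-like). Between lipid-associated and Kupffer-like cells, 2 members were higher with a summed count of 10, and 1 was lower without the deepest 5% of cells or with an offset of 5 CPM. Between Enpp2-positive and Enpp2-negative cells, 1 member was higher with a summed count of 10, 0 were lower without the deepest 5% or without cycling cells, where Sorl1 had fewer than 30 UMIs and gave no ratio, or with the offset, and 2 partner genes were lower with the offset against 6 without it. No paired analysis was possible because the 6 CluKO samples share 1 matrix with no map from cells to samples and no result comes from a test; for the same reason no replicate could be left out. Depth limits Vldlr, Lrp4 and Lrp8, with 45, 67 and 83 UMIs in all.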
